A study of Drosophila melanogaster with 6 samples.

Results

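The microRNAs (miRNAs) bantam, miR-7, miR-184 and miR-278 of *Drosophila melanogaster* were followed across ovary libraries of 3 genotypes. They were chosen by name: every row of the deposited count table whose precursor is dme-bantam, dme-mir-7, dme-mir-184 or dme-mir-278 was taken, with both arms of the hairpin. This gave 8 of 474 rows, and 4 of 256 precursors. Of these 8 arms, 7 were among the 150 rows that passed a filter on low counts and were tested, and the other, miR-278-5p, is given by its counts.

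A miRNA precursor is a short hairpin from which a mature strand is cut on the 5' side (5p) or the 3' side (3p), and usually 1 strand is loaded into an Argonaute protein while its partner is degraded. The loaded strand represses messenger RNAs that pair with it. In the fly ovary, germline stem cells at the tip of each ovariole divide to give cysts of nurse cells and an oocyte, which somatic follicle cells then enclose. bantam promotes tissue growth, represses the cell death gene hid, and is needed to keep germline stem cells. miR-7 and miR-278 act on the stem cell cycle, in part by repressing the cyclin-dependent kinase inhibitor dacapo, and miR-278 is also known for its part in the insulin response of the fat body. miR-184 is needed for oogenesis, where it represses the BMP receptor saxophone and the patterning gene K10, among others.

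The control was the strain w1118, labelled wild type. In wh7 flies the gene wuho is mutant; its product is a WD-repeat protein needed in the germline. In mei-p26 flies the mutant gene is mei-P26, whose TRIM-NHL product binds Argonaute and restrains miRNA activity as germline cysts differentiate. All 3 groups had w1118 as strain background, all flies were 7 days old, and each group had 2 libraries. The design asks how the ovarian miRNA profile differs between each mutant and the control. The labels name no allele beyond wh7 and mei-p26, and they do not tell if the 2 libraries of a group hold RNA of different flies. All p-values therefore measure only how far these libraries differ, and that spread may be technical. In whole ovaries, fewer cells of a type and less RNA per cell cannot be told apart.

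Library totals ran from 144175 to 249262 counts. The follicle cell miRNAs miR-318, miR-994 and miR-989, used here to check the tissue label, together held 316386 to 379675 CPM (counts relative to the scaled library size) in w1118, 304471 to 332029 in wh7 and 135313 to 177252 in mei-p26. Of 8 nervous system rows, 5 were at 0 in all libraries, including both arms of miR-124, and the list summed to at most 54.6 CPM. The 4 muscle rows, of which miR-133-5p was at 0, summed to 10993 to 16861 CPM in w1118, 23097 to 24078.5 in wh7 and 22599.5 to 27607 in mei-p26. These sums were nearly all miR-1-3p (1518 to 7886 counts), since miR-133-3p had only 1 to 3 counts. The gut and Malpighian tubule miRNA miR-281 summed to 2112 to 2350 CPM in w1118, 3936 to 4671 in wh7 and 237 to 308 in mei-p26. Testis-enriched miRNAs summed to 1204 to 1620 CPM in w1118, 1207 to 1269 in wh7 and 4281 to 6017 in mei-p26. In mei-p26 against w1118, 3 of 5 tested follicle cell arms fell, and of 17 tested testis-enriched rows 8 rose and 2 fell. Of all 150 rows tested, 21.3% rose and 12.7% fell. miR-983-5p is listed under 2 precursors with the same counts, so 7 different testis-enriched arms rose. Arms such as miR-303-3p (0 counts in both w1118 libraries, 16 and 16 in mei-p26) passed the low-count filter through mei-p26 alone. Both arms of miR-978, the 2 that fell, passed it through w1118 alone. Such rises and falls are partly set by the filter. The summed gut and muscle levels did not overlap between w1118 and either mutant. Of all rows, 59.3% did not overlap between wh7 and w1118, and 65.3% between mei-p26 and w1118. The part of these tissues in the results on the 4 miRNAs was not tested.

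Each of the 4 precursors had 1 main arm in every library: the 3p arm of bantam, miR-184 and miR-278, and the 5p arm of miR-7. Levels below are CPM after TMM scaling, which sets libraries to a common level from the bulk of the miRNAs, with mean ± SD over 2 libraries where a mean is given. Levels of different miRNAs are compared without a length term, since mature miRNAs are of near equal length, although adaptor ligation can favour some sequences. In w1118, bantam-3p ranked 6 of 474 rows by mean level, at 51247 ± 6936 CPM. miR-7-5p (15558 ± 2899 CPM, rank 16) and miR-184-3p (14846 ± 4528 CPM, rank 17) lay close together, within each other's spread. miR-278-3p, at 1911 ± 453 CPM, ranked 46. The 4 precursors together held 8.35% and 7.20% of all counts in the w1118 libraries, against 6.21% and 6.91% for wh7 and 7.52% and 7.68% for mei-p26.

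**Figure D1:**
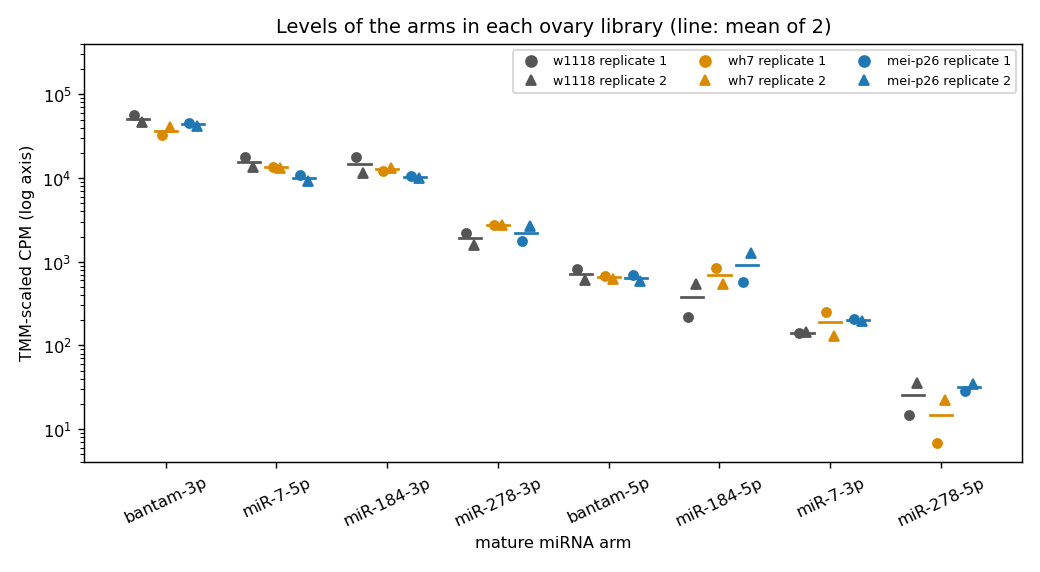
Level of each mature arm in each of the 6 ovary libraries, in CPM after TMM scaling on a log axis, with points for libraries and a line for the mean of 2. Of the 4 main arms, bantam-3p is highest in every library (33049 to 56151 CPM) and miR-278-3p lowest. Between them, miR-7-5p and miR-184-3p lie side by side and change places from library to library.

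Between the lowest and the highest of the 6 libraries, bantam-3p differed 1.70-fold, miR-278-3p 1.73-fold, miR-184-3p 1.78-fold and miR-7-5p 1.92-fold. The highest library was w1118 replicate 1 for bantam-3p, miR-7-5p and miR-184-3p. The less abundant arm miR-184-5p varied most, 5.80-fold, from 216 CPM in w1118 replicate 1 to 1255 CPM in mei-p26 replicate 2.

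bantam-3p, the growth-promoting strand, was lower in both wh7 libraries than in any other library, by an amount that did not pass the test. The w1118 libraries held 7523 and 6467 counts of it, or 56151 and 46343 CPM. The wh7 libraries held 4845 and 8933 counts, or 33049 and 40197 CPM. The mei-p26 libraries held 11160 and 12212 counts, or 45674 and 42328 CPM. Both wh7 libraries thus lay below all others, and the mei-p26 libraries lay just below both of w1118. The log2 fold change of wh7 over w1118 was -0.48 ± 0.23 (SE; 95% interval -0.96 to -0.0081; unadjusted p = 0.0466, adjusted p = 0.162 by the edgeR quasi-likelihood test with Benjamini-Hochberg adjustment). That of mei-p26 over w1118 was -0.22 ± 0.23 (-0.70 to 0.26, adjusted p = 0.472), and it turned to 0.054 with scaling by total count. Without w1118 replicate 2 both passed, at -0.80 (adjusted p = 0.0238) in wh7 and -0.65 (adjusted p = 0.0298) in mei-p26; without w1118 replicate 1 they were -0.23 and -0.084. As a share of all counts, which amounts to scaling by total count, the bantam precursor held 4.99% and 4.54% for w1118. It held 3.31% and 3.98% for wh7, and 4.94% and 4.97% for mei-p26. Any such share also depends on other abundant miRNAs, and miR-318-3p averaged 137762 CPM in w1118 but 24951 CPM in mei-p26. On the scale of shares the mei-p26 libraries lay between those of w1118, and wh7 stayed below both other groups. In the order of mean levels, w1118, mei-p26, wh7, no neighbouring pair passed the test, with a log2 difference of mei-p26 over wh7 of 0.26 ± 0.23 (adjusted p = 0.442).

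The partner strand bantam-5p had from 84 to 171 counts. Its levels were 814 and 602 CPM for w1118, 675 and 630.0 CPM for wh7, and 699.8 and 582 CPM for mei-p26. All 3 groups overlapped, and its log2 fold changes ran from -0.14 to -0.025 over the 3 comparisons, with intervals that reached from -0.84 to 0.66.

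miR-7-5p, the strand that acts on the stem cell cycle, was lower in mei-p26 than in both other groups. Control libraries held 2359 and 1885 counts of it, or 17607 and 13508 CPM. For wh7 the counts were 1991 and 2956, or 13581 and 13302 CPM. For mei-p26 they were 2678 and 2644, or 10960.1 and 9164 CPM. Both mei-p26 libraries lay below the other 4, while w1118 and wh7 overlapped. Its log2 fold change of mei-p26 over w1118 was -0.63 ± 0.23, a fall that passed the test (95% interval -1.12 to -0.14, adjusted p = 0.0438 by the edgeR quasi-likelihood test); the level was 1.55 times higher in w1118. This call was kept under 9 of 17 alternatives. It was lost when w1118 replicate 1 (-0.43, adjusted p = 0.366) or mei-p26 replicate 2 (-0.55, 0.220) was left out, and when wh7 replicate 1 (-0.86, 0.0737) or 2 (-0.63, 0.111) was. It was also lost with total-count scaling (-0.36), TMM without the 10 most abundant rows (-0.68), no filter (-0.66) and the compared groups alone (-0.64), at adjusted p from 0.0633 to 0.197. As a share of all counts the miR-7 precursor held 1.56% and 1.32% for w1118, 1.36% and 1.31% for wh7, and 1.19% and 1.08% for mei-p26, so on this scale too both mei-p26 libraries were lowest. In wh7 the log2 fold change was -0.21 ± 0.23 (-0.70 to 0.27, adjusted p = 0.598), and it turned to 0.10 without w1118 replicate 1. The difference between the mutants was -0.42 ± 0.23 (-0.90 to 0.068, adjusted p = 0.216), so an effect in mei-p26 apart from wh7 was not shown. It passed without w1118 replicate 2, at -0.53 (adjusted p = 0.0390).

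The other arm, miR-7-3p, rests on few counts: 19 and 20 for w1118, 37 and 29 for wh7, and 50 and 56 for mei-p26. Its levels were 142 and 143 CPM for w1118, 252 and 130.5 CPM for wh7, and 205 and 194 CPM for mei-p26. Here mei-p26 lay above w1118, opposite to the main arm, and wh7 spanned both. The log2 fold change of mei-p26 over w1118 was 0.48 ± 0.49 (adjusted p = 0.468), and that of wh7 was 0.40 ± 0.50 (adjusted p = 0.637).

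miR-278-3p, the other miRNA tied to dacapo, had its highest mean in wh7. Its counts ran from 222 in w1118 replicate 2 to 778 in mei-p26 replicate 2. The level was 2232 and 1591 CPM in the w1118 libraries, 2742 and 2754 CPM in those of wh7, and 1759.8 and 2697 CPM in those of mei-p26. The wh7 libraries lay close together and above all others, mei-p26 replicate 2 came near them, and mei-p26 replicate 1 fell between the w1118 libraries. The log2 fold change of wh7 over w1118 was 0.52 ± 0.29 (95% interval -0.081 to 1.13, adjusted p = 0.234 by edgeR), 0.11 without w1118 replicate 2 and 0.90 without w1118 replicate 1. For mei-p26 it was 0.22 ± 0.29 (-0.38 to 0.83, adjusted p = 0.582), and its sign turned with upper-quartile scaling, and when mei-p26 replicate 2, w1118 replicate 2 or wh7 replicate 1 was left out. In the order wh7, mei-p26, w1118, no neighbours passed the test, the mutants differing by -0.30 ± 0.29 (adjusted p = 0.496). As a share of all counts the miR-278 precursor held 0.197% and 0.157% for w1118, 0.270% and 0.271% for wh7, and 0.191% and 0.316% for mei-p26; here the lone highest library was mei-p26 replicate 2. The partner miR-278-5p was too rare to test, with 2 and 5 counts for w1118, 1 and 5 for wh7, and 7 and 10 for mei-p26.

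miR-184-3p, the strand tied to BMP signalling in oogenesis, followed miR-7-5p closely. Its counts ran from 1625 in w1118 replicate 2 to 2965 in wh7 replicate 2. The w1118 libraries stood at 18048 and 11645 CPM, those of wh7 at 12196 and 13342 CPM, and those of mei-p26 at 10710.4 and 10124 CPM. The w1118 libraries lay far apart and enclosed those of wh7, and both mei-p26 libraries lay below the rest. The log2 fold change of mei-p26 over w1118 was -0.51 ± 0.24 (95% interval -1.02 to -0.0013; unadjusted p = 0.0495, adjusted p = 0.112). Without w1118 replicate 2 it passed, at -1.09 (adjusted p = 0.00345), and without w1118 replicate 1 it was -0.17. For wh7 it was -0.22 ± 0.24 (-0.73 to 0.29, adjusted p = 0.599), and 0.24 without w1118 replicate 1. As a share of all counts the precursor, both arms together, held 1.60% and 1.18% for w1118 and 1.28% and 1.35% for wh7. For mei-p26 it held 1.20% and 1.32%, so that all groups overlapped. By library total, miR-184-3p alone stood at 15820 and 11271 CPM for w1118 and 11958 and 13003 CPM for wh7. For mei-p26 it stood at 11414 and 11719 CPM, below both wh7 libraries and between those of w1118.

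The other arm, miR-184-5p, went the opposite way. Its counts ran from 29 in w1118 replicate 1 to 362 in mei-p26 replicate 2. Levels of miR-184-5p were 216 and 545 CPM for w1118, 846 and 549 CPM for wh7, and 569 and 1255 CPM for mei-p26. w1118 replicate 1 was the lowest library and mei-p26 replicate 2 the highest, and the gap between w1118 replicate 2 and the lower library of each mutant was small. It rose 2.39-fold in mei-p26 over w1118, a log2 fold change of 1.26 ± 0.44 (95% interval 0.34 to 2.18, adjusted p = 0.0350 by edgeR). This call was kept under 9 of 17 alternatives. Leaving out mei-p26 replicate 2 ended it (0.57, adjusted p = 0.463), as did leaving out w1118 replicate 1 (0.73, 0.236) or wh7 replicate 1 (1.08, 0.125). It was also lost with total-count scaling, upper-quartile scaling, a mean count of 50 or more, DESeq2 and limma-voom, where the log2 fold changes were 1.06 to 1.53 and adjusted p 0.0506 to 0.0813. In wh7 the log2 fold change was 0.86 ± 0.45 (-0.071 to 1.80, adjusted p = 0.208). It was 0.45 without w1118 replicate 1, 0.47 without wh7 replicate 1 and 1.49 without w1118 replicate 2. The mutants differed by 0.40 ± 0.42 (adjusted p = 0.544).

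The calls on these arms are set beside those on the whole table. In wh7 against w1118, 0 of 7 tested arms passed with edgeR, 0 with DESeq2 and 0 with limma-voom, and 1 had an unadjusted p under 0.05, while 15.3% of all rows passed with edgeR, 11.3% higher and the rest lower. The libraries of the 2 groups did not overlap in 3 of 7 arms, against 59.3% of all rows. In mei-p26 against w1118, 1 arm rose and 1 fell, against 34.0% of all rows in either direction, 21.3% higher and 12.7% lower. Libraries did not overlap in 5 of 7 arms, against 65.3% of all rows. Between the mutants, 0 of 7 arms passed with edgeR, DESeq2 or limma-voom, and 0 had an unadjusted p under 0.05, against 27.3% of all rows, 12.7% higher and 14.7% lower. There, 4 of 7 arms did not overlap, against 61.3% of all rows. In mei-p26 against w1118, 2 of 7 called and 5 of 7 not overlapping lie near these background shares. The median log2 fold change of the 7 arms was -0.12 in wh7, -0.14 in mei-p26 and -0.025 between the mutants, and that of all 150 rows 0.078, 0.083 and 0.13. Both mutant comparisons share the w1118 libraries. Relative to TMM, scaling by total count shifted the log2 fold changes of mei-p26 over w1118 by a median of 0.27, and upper-quartile scaling by -0.22.

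**Figure D2:**
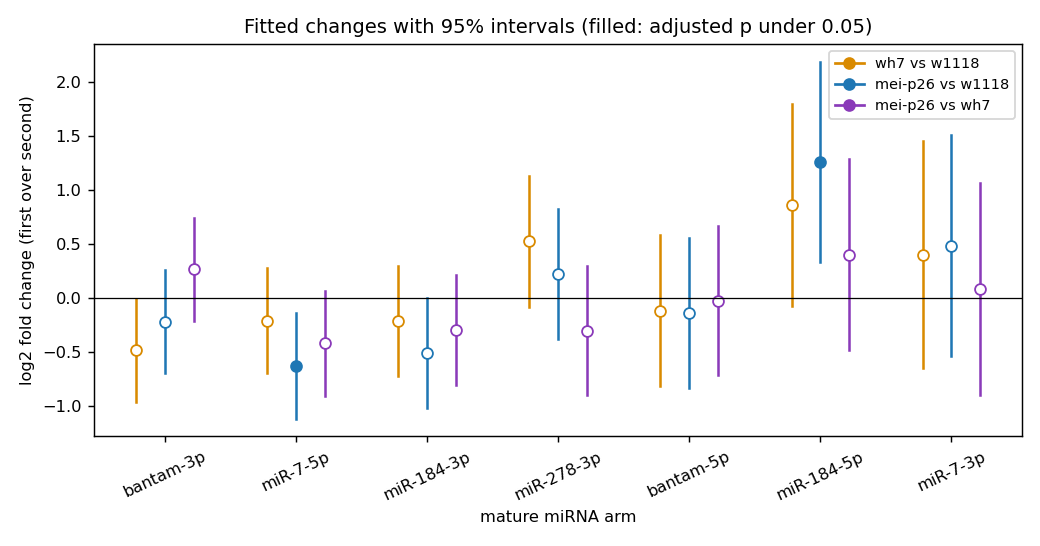
Log2 fold change of the 7 tested arms in each comparison, with 95% intervals from the edgeR fit of all 6 libraries. Filled points passed an adjusted p of 0.05: miR-7-5p (-0.63) and miR-184-5p (1.26) in mei-p26 over w1118.

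Ratios between main arms within a library need no scaling. The ratio of bantam-3p to miR-7-5p was 3.19 and 3.43 for w1118, 2.43 and 3.02 for wh7, and 4.17 and 4.62 for mei-p26. The 3 groups did not overlap in it, with mei-p26 highest and wh7 lowest. The nearest libraries of wh7 and w1118 (3.02 and 3.19) lay closer than the wh7 libraries did to each other. The ratio of bantam-3p to miR-184-3p likewise had wh7 lowest and mei-p26 highest, at 2.71 and 3.01 for wh7 and 4.26 and 4.18 for mei-p26, with w1118 between them at 3.11 and 3.98. miR-7-5p and miR-184-3p kept a ratio near 1 throughout, from 0.905 in mei-p26 replicate 2 to 1.16 in w1118 replicate 2. miR-278-3p stood apart from the other 3: there were 25.2 and 29.1 counts of bantam-3p for each of its own in w1118, but 12.1 and 14.6 in wh7. In mei-p26 this ratio was 25.95 and 15.7, so replicate 1 lay within the w1118 libraries and replicate 2 just above those of wh7. The ratio of miR-7-5p to miR-278-3p was 7.89 and 8.49 for w1118, 4.95 and 4.83 for wh7, and 6.23 and 3.40 for mei-p26, so that both mutants lay below the control. These ratios between precursors are given as a description and were not tested. How many pairs of other miRNAs do not overlap was not counted. Single rows did not overlap in 59.3% of cases between wh7 and w1118 and 65.3% between mei-p26 and w1118.

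**Figure D3:**
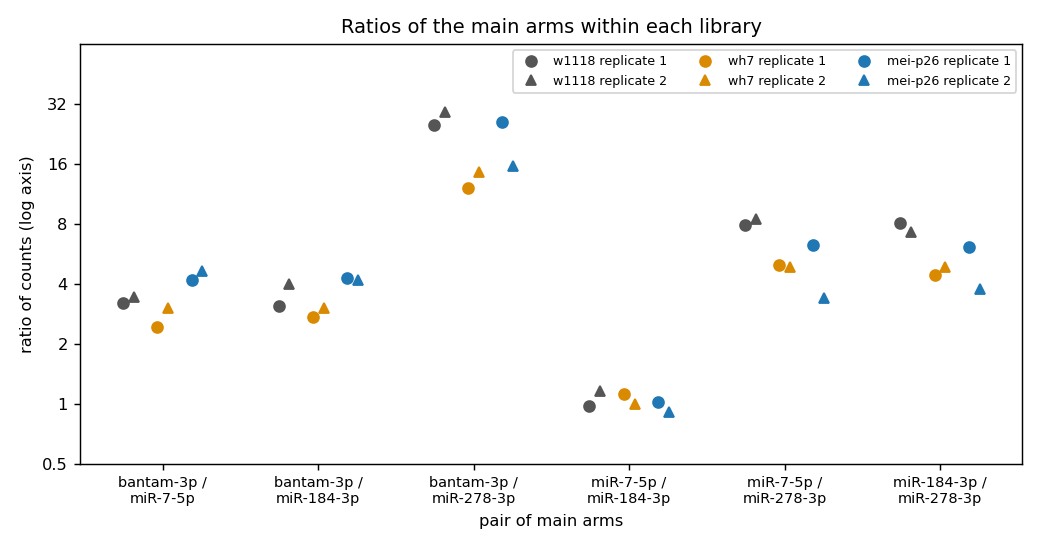
Ratio of counts between each pair of main arms in each library, on a log axis. The libraries of the 3 genotypes do not overlap in the ratio of bantam-3p to miR-7-5p, which was not tested (2.43 to 3.02 in wh7, 3.19 to 3.43 in w1118, 4.17 to 4.62 in mei-p26). That of miR-7-5p to miR-184-3p stays near 1.

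The share of the less abundant arm is a second measure that needs no scaling. bantam-5p made up 1.28% to 2.00% of its precursor's counts over the 6 libraries. miR-7-3p made up 0.799% and 1.05% for w1118, 1.82% and 0.972% for wh7, and 1.83% and 2.07% for mei-p26. miR-184-5p made up 1.19% of its precursor in w1118 replicate 1 (exact 95% interval 0.795% to 1.70%) and 4.47% in replicate 2 (3.54% to 5.56%). It made up 6.49% and 3.95% for wh7, and 5.04% and 11.0% for mei-p26 (9.97% to 12.1% in replicate 2). The intervals, which cover counting error only, do not overlap between the replicates of w1118, of wh7 or of mei-p26. In wh7 they were 5.42% to 7.68% and 3.29% to 4.70%. miR-278-5p made up 0.248% to 2.20%. On the log2 scale of 5p over 3p counts with a pseudocount of 1, miR-184 differed by 1.75 ± 0.72 between mei-p26 and w1118 (limma, unadjusted p = 0.0480, adjusted p = 0.282). This difference was 0.78 without w1118 replicate 1, 2.72 without w1118 replicate 2 and 1.14 without mei-p26 replicate 2. miR-7 differed by -1.06 ± 0.41 (unadjusted p = 0.0365, adjusted p = 0.282), and bantam by 0.075 ± 0.32 (adjusted p = 0.899). For miR-184 and miR-7 alike the less abundant arm had the larger mean share in mei-p26, but 0 of the 3 precursors with enough counts passed in any comparison with limma, with 2 at an unadjusted p under 0.05 in mei-p26 against w1118 and 0 in the others. Of all 50 precursors, 2.00% passed in wh7 against w1118, 2.00% in mei-p26 against w1118 and 0.00% between the mutants. By mean log2 ratio, miR-7 ranked 9, bantam 13 and miR-184 24 among the 50 from the most to the least one-sided.

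**Figure D4:**
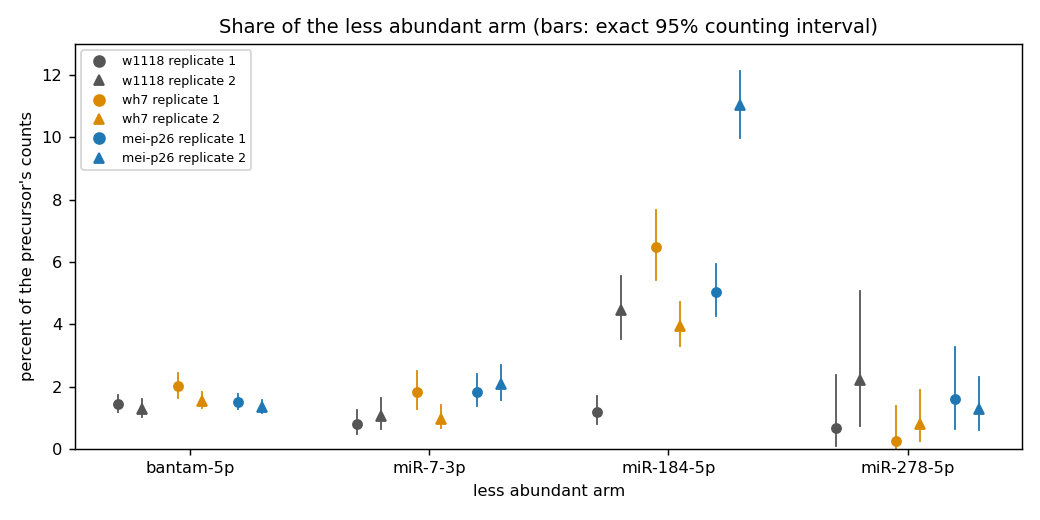
Percent of each precursor's counts held by its less abundant arm in each library, with exact 95% counting intervals. miR-184-5p spreads from 1.19% in w1118 replicate 1 to 11.0% in mei-p26 replicate 2, while bantam-5p stays between 1.28% and 2.00%.

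The spread between replicates bears on each of these results. In w1118 the replicates of miR-184-5p differed 2.45-fold, more than in 92.7% of the 150 rows, and in mei-p26 2.18-fold, more than in 90.0%. In wh7 miR-184-5p differed 1.53-fold, more than in 83.3% of rows, and miR-7-3p 1.87-fold, more than in 94.7%. miR-184-3p differed 1.55-fold between the w1118 libraries, against a median of 1.33-fold over all rows. miR-7-5p differed 1.30-fold in w1118, 1.02-fold in wh7 and 1.20-fold in mei-p26, and bantam-3p 1.21-fold, 1.22-fold and 1.08-fold. miR-278-3p agreed best in wh7, at 1.00-fold, and differed 1.53-fold in mei-p26.

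**Figure D5:**
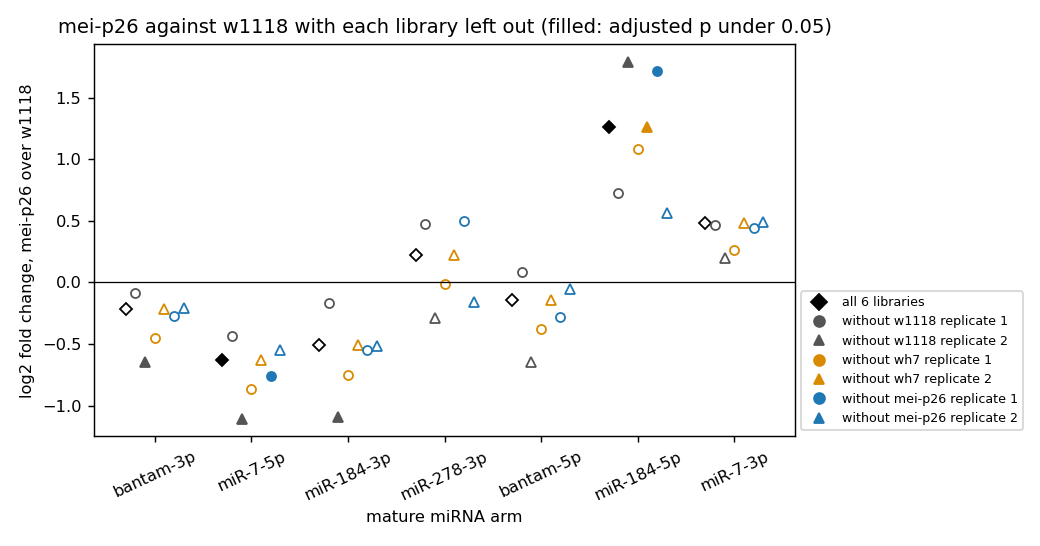
Log2 fold change of mei-p26 over w1118 for each tested arm, fitted with all 6 libraries (diamonds) and with each library left out; filled points passed an adjusted p of 0.05. Leaving out w1118 replicate 1 or 2 moves miR-7-5p to -0.43 or -1.11 and miR-184-5p to 0.73 or 1.79.

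To place the 4 miRNAs among others, the tested miRNAs whose log2 CPM over the 6 libraries followed each main arm most closely are given as a description; all share the same libraries, depth and scaling. miR-12-5p (Pearson's r = 0.930), miR-304-5p (0.876) and miR-9b-5p (0.874) came closest to bantam-3p. For miR-7-5p they were miR-999-3p (r = 0.983), miR-986-5p (0.950) and miR-8-3p (0.945). For miR-184-3p they were miR-92a-5p (r = 0.959), miR-7-5p (0.913) and miR-999-3p (0.895), so that miR-7-5p and miR-184-3p followed each other more closely than any other pair of the 4. For miR-278-3p they were miR-275-5p (r = 0.914), miR-100-5p (0.867) and miR-10-3p (0.851), and miR-278-3p itself had an r of -0.52 with bantam-3p. In the RefSeq gene table of Release 6, a later build than the BDGP5 of the study, mir-7 overlaps the protein-coding gene HnRNP-K, mir-278 overlaps the protein-coding gene CG42524, and bantam and mir-184 each overlap a long noncoding RNA gene.

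Other miRNAs known from the ovary were counted in the same fit. They are the let-7 complex, miR-34, miR-989, miR-279, miR-996, miR-318, miR-994, miR-9a, miR-9c, miR-305 and miR-310 to miR-313, with 25 tested arms. Against w1118, 8 of 25 rose and 3 fell in mei-p26, beside 21.3% and 12.7% of all rows, with a median log2 fold change of 0.56 beside 0.083 over all rows. The share that fell is near that of all rows. In wh7, 1 of 25 rose, beside 11.3% of all rows, and 1 of 25 fell, beside 6 of all 150 rows (median 0.084 beside 0.078). In wh7 too, the share that fell is near that of all rows. Between the mutants 4 were higher and 3 lower in mei-p26, beside 12.7% and 14.7% of all rows (median 0.22 beside 0.13). Of the 4 most abundant arms, the follicle cell miRNAs miR-318-3p and miR-994-5p fell in mei-p26, with log2 fold changes of -2.47 ± 0.26 (adjusted p = 1.80e-07 by edgeR) and -2.40 ± 0.27 (5.75e-07). miR-989-3p, the border cell migration miRNA, did not pass in either mutant (-0.40 ± 0.24 in each). miR-9c-5p, with 9360 and 5467 counts in the w1118 libraries, was the arm that fell in wh7. Its level was 54519 ± 21698 CPM in w1118 and 30421 ± 895 CPM in wh7 (log2 fold change -0.84 ± 0.27, adjusted p = 0.0383 by edgeR). The arm that rose there was miR-9a-5p, at 1050.4 ± 347 CPM against 352 ± 82.5 CPM in w1118 (log2 fold change 1.58 ± 0.35, edgeR adjusted p = 0.00342), named after its values were seen.

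The signed fold changes of the 8 arms in the authors' deposited table equal ratios of mean CPM by library total, to within 0.0286%. The authors' deposited table has bantam-3p at 1.04 in mei-p26 and -1.31 in wh7, where a negative sign marks a fall. miR-7-5p stood at -1.28 in mei-p26 in the authors' deposited table (adjusted p = 0.236, test not given in the sources used here). miR-184-5p stood at 2.87 there in the authors' deposited table (adjusted p = 0.123). None of the 8 arms had an adjusted p under 0.05 in either comparison of the authors' deposited table.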

How the data were processed

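Libraries were made from total ovary RNA with the QIAseq miRNA kit, which adds unique molecular identifiers (UMIs), per the labels' protocols. The submitters' processing notes name bcl2fastq 2.20, Trimmomatic and, as build, BDGP5. Which aligner, counting tool and annotation were used is not stated there. The deposited table holds raw counts per mature miRNA and precursor, per the file headers, and whether UMIs were collapsed is not stated, so PCR copies may be counted as molecules. Its control columns are headed W118 and were taken as w1118. The authors' signed fold-change score and p-values in the deposited table come from a test that is not named and are quoted alone. Reads shared by precursors may be divided, but each of the 8 arms has 1 row.

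Counts were fitted in R 4.3.3 with edgeR 4.0.16 and tested by quasi-likelihood, with TMM scaling, filterByExpr at a minimum count of 10, all 6 libraries in 1 fit with 3 residual degrees of freedom, and Benjamini-Hochberg adjustment over all 150 rows at 0.05. SE was taken as |log2 fold change| / √F. Intervals and tests of the 7 arms used 19.7 degrees of freedom, since quasi-likelihood pools the spread over rows. Arm ratios were tested with limma 3.58.1 where both arms of a precursor averaged 10 counts or more. The scripts were tested on simulated data. Simulated arm ratios varied by counting error alone, so those runs do not cover the spread between real replicates. Alternatives were other scalings, filters and tools (DESeq2 1.42.0, limma-voom), a replicate block, the compared groups alone, 1 row per mature miRNA and each library left out. The members, lists and alternatives were chosen with earlier results of these data known. Genes named beside the members follow fixed rules: the 3 miRNAs most correlated with each main arm (log2 CPM, prior count 2), and, of a list of ovarian regulators, the 4 most abundant arms. Other arms of that list, named after their values were seen, are marked so. Mature sequences were not used here, so miRNAs that share a seed were not sought.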

Additional observations from a re-analysis of the deposited data

How the results depend on the processing

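Replicate numbers mark no stated pairing. The log2 differences between replicates 1 and 2 correlated across 150 rows at -0.33 between wh7 and w1118, -0.016 between mei-p26 and w1118 and 0.090 between the mutants. With a replicate block 26, 50 and 41 rows passed in these comparisons and 0, 2 and 0 of the 7 arms, where miR-184-5p (adjusted p = 0.00787) and miR-7-5p (0.0469) kept their calls in mei-p26 against w1118. With crossed numbers, chosen after seeing the data, 31 rows passed in wh7 against w1118, and 31 with these groups alone and no block.

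Of all rows, 23 passed in wh7 against w1118 (10 to 30 with 1 library left out), 51 in mei-p26 against w1118 (34 to 59) and 41 between the mutants (34 to 55); at mean counts of 50 or more these were 9, 26 and 26, with fewer rows tested. In mei-p26 against w1118 the 51 were 32 higher and 19 lower, which became 22 and 25 with upper-quartile and 27 and 32 without w1118 replicate 2. In wh7 against w1118, 17 higher and 6 lower became 7 and 11 without that library, and between the mutants 19 and 22 became 23 and 19 with total-count scaling. Of the 7 arms, 2 passed in mei-p26 against w1118 and 0 to 4 with 1 library left out. 0 passed with total-count scaling. Only 1 passed with upper-quartile scaling, TMM without the 10 most abundant rows, no filter, mean counts of 50 or more, DESeq2, limma-voom or the compared groups alone. With 1 library left out, 0 to 1 passed in each of the other comparisons. Arm ratios passed for 1, 1 and 0 precursors. With 1 library left out this was 0 to 4 in each mutant against w1118. With both arms averaging 50 counts or more it was 0 in both, with a replicate block or the compared groups alone 0 in wh7 against w1118, and with a pseudocount of 5 it was 1 between the mutants.

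A library left alone in its group was assumed to vary like the others. At mean counts of 50 or more, miR-7-3p and the arm ratio of miR-7 gave no value. Signs turned for changes that had not passed. With 1 library left out, log2 fold changes of wh7 over w1118 ran from -0.51 to 0.22 for bantam-5p, -0.69 to 0.24 for miR-184-3p, -0.58 to 0.10 for miR-7-5p and -0.22 to 0.86 for miR-7-3p. Those of mei-p26 over w1118 ran from -0.64 to 0.081 for bantam-5p and -0.29 to 0.50 for miR-278-3p, and the arm ratio of bantam from -0.0024 to 0.15. Those of mei-p26 over wh7 ran from -0.19 to 0.15 for bantam-5p, -0.38 to 0.48 for miR-7-3p and -0.24 to 0.83 for miR-184-5p, and the arm ratio of miR-184 from -0.0095 to 1.21. Total-count scaling gave 0.054 for bantam-3p and 0.13 for bantam-5p in mei-p26 against w1118, and 0.15 for bantam-5p between the mutants. Upper-quartile scaling gave -0.026 for miR-278-3p in mei-p26 against w1118 and -0.071 for miR-7-3p between the mutants, which was -0.043 in the compared groups alone. The cause of these shifts was not tested. With 2 libraries a group, the 95% intervals of the main arms reached -1.12 and 1.13 on the log2 scale.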
